A study of Mus musculus with 2 samples.

Results

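All 8 genes that mark the identity of oligodendrocyte precursor cells (Pdgfra, Cspg4, Olig1, Olig2, Sox10, Sox6, Nkx2-2 and Gpr17) had open chromatin at an annotated start in both libraries of left cerebral cortex. The 8 were named for their known role, out of 21938 protein-coding genes. DNase-seq, in which DNase I cuts DNA that is not packed into nucleosomes, was applied to male B6CASTF1/J mice, offspring of a cross of C57BL/6J with CAST/EiJ, at 14 days of age. The series held 1 group and 2 libraries: the label of replicate 1 names 3 males, that of replicate 2 names 1 male, and both carry the same donor identifier. No treatment, genotype or second condition was part of the design, so the values below are levels with their spread over the 2 libraries and no test. If the libraries do not come from separate animals, that spread is technical.

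Oligodendrocyte precursor cells, also called NG2 glia, arise from neural progenitors, spread through the brain and either keep dividing or become the myelinating oligodendrocytes, a step that is under way in the cortex of young mice. Platelet-derived growth factor, received by Pdgfra, keeps them dividing, and the transcription factors Olig1, Olig2, Sox10 and Nkx2-2 set and carry forward the lineage, whereas Sox6 holds differentiation back. Cspg4 encodes the NG2 proteoglycan on their surface, and Gpr17 is a receptor of cells that are leaving the precursor state. The tissue was not sorted. In such tissue, fewer cells of a type and less open chromatin per cell cannot be told apart.

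For each gene, peaks were read in the gene body and 50 kb on each side. A promoter peak overlapped the 1000 bp on either side of any annotated start of the gene, and a distal peak had its centre more than 1000 bp from every annotated start of any gene. The strongest distal site that was found in both libraries and overlapped no exon is printed for 7 of the genes, all but Gpr17, because for most of the genes such a site was higher than the promoter peak. Each runs 5′ to 3′ on the plus strand of GRCm38 (mm10), with the sequence taken from RefSeq's GRCm38.p6, and capitals mark bases inside footprints that were called in both libraries. A footprint is a short stretch that is cut less than the open DNA around it.
Pdgfra, 5′ flank, chr5:75143321-75143480: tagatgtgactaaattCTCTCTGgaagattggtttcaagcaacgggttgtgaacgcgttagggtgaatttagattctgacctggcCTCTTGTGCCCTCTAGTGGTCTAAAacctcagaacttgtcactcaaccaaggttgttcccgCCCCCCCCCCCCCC
Cspg4, intron, chr9:56889821-56890020: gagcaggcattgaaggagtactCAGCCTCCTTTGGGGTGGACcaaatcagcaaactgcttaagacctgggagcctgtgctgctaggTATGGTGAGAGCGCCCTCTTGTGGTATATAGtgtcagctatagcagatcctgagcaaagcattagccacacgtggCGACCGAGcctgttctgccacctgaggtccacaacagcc
Nkx2-2, intron, chr2:147178861-147179060: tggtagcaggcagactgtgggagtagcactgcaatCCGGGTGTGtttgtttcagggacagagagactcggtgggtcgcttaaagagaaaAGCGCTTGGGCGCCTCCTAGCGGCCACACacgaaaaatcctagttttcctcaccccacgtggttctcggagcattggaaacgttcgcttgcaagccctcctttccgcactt
Olig1, 3′ flank, chr16:91314241-91314400: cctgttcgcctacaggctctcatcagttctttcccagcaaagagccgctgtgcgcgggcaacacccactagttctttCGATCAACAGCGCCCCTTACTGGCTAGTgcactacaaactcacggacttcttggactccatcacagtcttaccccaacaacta
Olig2 window, upstream of Olig1, chr16:91266041-91266260: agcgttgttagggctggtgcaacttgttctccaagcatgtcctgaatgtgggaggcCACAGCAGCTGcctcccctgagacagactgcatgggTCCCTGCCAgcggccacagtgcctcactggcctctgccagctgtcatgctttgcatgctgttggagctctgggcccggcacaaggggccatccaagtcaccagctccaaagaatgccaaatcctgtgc
Sox10, 3′ flank, chr15:79148661-79148860: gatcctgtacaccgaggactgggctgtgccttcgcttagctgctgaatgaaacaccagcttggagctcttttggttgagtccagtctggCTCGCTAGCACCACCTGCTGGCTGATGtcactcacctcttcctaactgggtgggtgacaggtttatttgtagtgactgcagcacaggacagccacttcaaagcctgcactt
Sox6, intron, chr7:115966281-115966480: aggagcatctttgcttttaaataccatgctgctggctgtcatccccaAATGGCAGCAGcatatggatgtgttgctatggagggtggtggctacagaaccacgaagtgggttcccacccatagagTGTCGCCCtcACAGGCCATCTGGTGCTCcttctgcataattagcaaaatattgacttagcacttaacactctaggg

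These sequences are the C57BL/6J reference; the CAST/EiJ allele of the animals was not read. In the Pdgfra, Cspg4 and Nkx2-2 sites, 3 of the 7 shown, the capitals include a word of the kind bound by CTCF, the protein that marks the borders of chromatin loops. The word searched was CC, any 3 bases, AG, any 2 bases and then GGC, on either strand, and it was chosen after the sites had been seen. It begins at base 93 of the Pdgfra site and at base 101 of the Nkx2-2 site. It occurs in the Cspg4 site at base 25 and again at base 99, and the second of these overlaps the shorter CTCF word AGNGGGCGC. The site shown for Olig2 holds the E-box CAGCTG from bases 62 and 130, and the first of these touches the shared footprint. E-boxes are the words read by basic helix-loop-helix factors, the class to which Olig1 and Olig2 belong. In the Sox6 site the E-box CAGATG at base 141 touches a shared footprint. The GC box GGGCGG begins at base 144 of the Pdgfra site. None of the 12 words of the comparison of all distal peaks was found in the Olig1, Sox10 or Nkx2-2 sequence shown, which says only that those letters are not there.

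The 8 promoters were open but weak. A peak lay at an annotated start in both libraries for 8 of 8 genes, against 66.7% of all protein-coding genes, and with the authors' stricter peak list for 6 of 8, against 62.2%. The 2 lost with the stricter list were Sox10 and Nkx2-2. The peak signal is the highest density of DNase I cuts in the peak, which the authors scaled to depth. The median promoter signal of the 8 genes was 0.886 in replicate 1 and 1.44 in replicate 2. Over the 14628 genes open in both libraries it was 3.62 and 4.04, and the mean signal of each of the 8 lay below the median of those genes.

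Among the transcription factors, Sox6, Olig1 and Olig2 had the stronger promoter peaks when the strongest peak at any annotated start was taken. For Sox6, with 13 annotated starts, that peak lay inside the gene. Its 5′ end had no peak in replicate 1 and one of 0.405 in replicate 2. Sox6, a Sox factor that delays differentiation, measured 2.50 in replicate 1 and 2.29 in replicate 2, a mean of 2.39 ± 0.14 (SD, n = 2). Olig1, a helix-loop-helix factor of the lineage, measured 1.73 and 2.73 (2.23 ± 0.70, SD, n = 2), and its neighbour Olig2, which specifies the lineage, measured 1.07 and 1.47 (1.27 ± 0.29, SD, n = 2). Olig1 and Olig2 were thus higher in replicate 2, whereas Sox6 was not. Sox10, the Sox factor that also switches on myelin genes, measured 0.483 and 0.547 (0.515 ± 0.045, SD, n = 2). Nkx2-2, a homeodomain factor that times the start of differentiation, measured 0.464 and 0.485 (0.475 ± 0.015, SD, n = 2). For Sox10 and Nkx2-2 the 2 libraries gave different peaks, so these SDs are not the spread of the same site. Sox10 and Nkx2-2 overlapped each other and were below the other 6 genes in both libraries.

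Of the 3 surface proteins, Pdgfra, the growth factor receptor, measured 2.47 and 1.97 (2.22 ± 0.36, SD, n = 2). Gpr17, a receptor coupled to G proteins, measured 0.616 and 1.41 (1.01 ± 0.56, SD, n = 2). Cspg4 measured 0.701 and 0.799 (0.750 ± 0.069, SD, n = 2). By the strongest peak at any annotated start, in order of the mean, the genes ran Sox6, Olig1, Pdgfra, Olig2, Gpr17, Cspg4, Sox10 and Nkx2-2. The libraries of the first 3 overlapped one another and lay above those of the other 5. Gpr17 overlapped both of its neighbours in this order, and Cspg4 did not overlap Sox10.

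By ratio, the Gpr17 promoter differed most between the libraries. Its log2 ratio of replicate 2 to replicate 1 was 1.19, outside the range of −0.61 to 1.07 that held the central 95% of 118593 shared peaks genome-wide. The median of those ratios was 0.25. For the other 7 genes the ratio ran from −0.33 for Pdgfra to 0.65 for Olig1, inside that range. The ratios of Sox10 and Nkx2-2 set different peaks of the 2 libraries against each other. Unlike the range, they do not compare the same site.

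**Figure D1:**
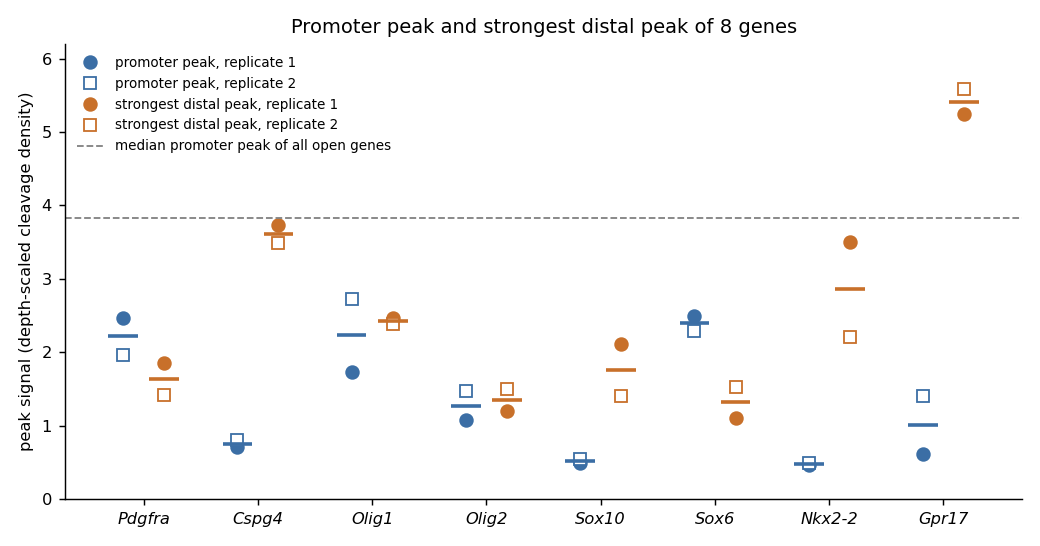
Peak signal (depth-scaled cleavage density) of the strongest promoter peak and the strongest distal peak of each of the 8 genes; filled circles are replicate 1, open squares replicate 2, bars their mean, and the dashed line the median promoter peak of all open genes, averaged over the libraries. All 16 promoter values lie below the dashed line, and the strongest distal peak stands clear of the promoter peak for Cspg4, Sox10, Nkx2-2 and Gpr17.

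In GENCODE M21 (mm10), Pdgfra lies on the plus strand at chr5:75152292-75198215, Cspg4 at chr9:56865033-56899870, Olig2 at chr16:91225457-91228677 and Olig1 at chr16:91269772-91271933, also on the plus strand. Sox10 lies on the minus strand at chr15:79154908-79165240, Sox6 at chr7:115470872-116038796, Nkx2-2 at chr2:147177546-147194243 and Gpr17 on chromosome 18 at 31942997-31949636, also on the minus strand. Which annotated start was open differed from gene to gene. At Olig1, Olig2 and Gpr17, which have 1 annotated start each, and at Cspg4, the peak lay at the 5′ end of the gene. With the 5′ end alone as the promoter, 6 of 8 genes had a peak in both libraries, against 61.9% of all protein-coding genes. Pdgfra has 9 annotated starts. Its 5′ end measured 1.12 and 1.20, whereas its strongest promoter peak, at chr5:75156261-75156480, lay inside the gene between coding starts at 75155899 and 75156833. The Pdgfra promoter value is therefore 1.16 ± 0.06 (SD, n = 2) when only the 5′ end counts, and the gene then joins those whose distal peak is higher.

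Sox6, which spans 567925 bp and has 13 annotated starts, had no peak at its 5′ end in replicate 1. In replicate 2 the peak over that end measured 0.332. The 0.405 peak of replicate 2 lay 59 bp from the start of the neighbouring gene 1110004F10Rik. The peak that gave the Sox6 promoter value, chr7:116033021-116033180, lay 3′ of the Sox6 5′ end, beside the start at 116033602 of a transcript annotated as retaining an intron. A second internal start, at 115824710, measured 0.374 and 0.749, and the start at 115597896 measured 0.521 and 0.663.

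At Nkx2-2 the 2 libraries did not share a promoter peak. In replicate 1 the peak, at chr2:147186241-147186440, lay at the coding start 147186404. Replicate 2 had none at either coding start, and its peak covered the start of a noncoding transcript at 147194243. At Sox10 the strongest peaks also differed: replicate 1 had its peak upstream of the start at 79165240 and replicate 2 had its peak over the start at 79164474. The upstream Sox10 peak, chr15:79165669-79165837, was present in both libraries, at 0.483 and 0.534, and lay 290 bp from the start of Gm10863. For Nkx2-2, presence in both libraries therefore means any annotated start and not the same one.

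The 5′ ends themselves differ in sequence. From 250 bases before to 50 bases after the 5′ end, the count of CpG dinucleotides was 27 at Nkx2-2, 26 at Olig1 and 22 at Olig2. It was 12 at Cspg4, 10 at Sox6, 5 at Sox10, 5 at Gpr17 and 4 at Pdgfra. The median of all protein-coding genes was 11. A GC box, GGGCGG on either strand, was present in this window for 5 of 8 genes, against 43.0% of all. The Nkx2-2 window was the richest in CpG of the 8. Its 5′ end in the annotation is a noncoding one, with a peak of 0.485 in replicate 2 and none in replicate 1.

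Outside the promoters, the strongest site near most of these genes was higher than the promoter peak. This held for 6 of 8 genes over the mean of the libraries (all but Pdgfra and Sox6), against 34.8% of all genes open in both libraries. It held for 6 of 8 in replicate 1 and 5 of 8 in replicate 2, where Olig1 fell short: its ratio of distal to promoter signal was 1.42 in replicate 1 and 0.876 in replicate 2. For Olig2 the ratio was 1.12 and 1.01. The median of the strongest distal signals was 2.29 and 1.87 for the 8 genes and 2.15 and 2.11 for all protein-coding genes.

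The count depends on how far the window reaches. With 10 kb on each side it was 3 of 8 (Cspg4, Sox10 and Nkx2-2), against 22.3% of all open genes. The distal values of Olig2 (0.928) and Gpr17 (0.584) then came from replicate 2 only. With starts taken to reach 2500 bp the count was 5 of 8, without Cspg4, against 31.6% of all open genes. The strongest distal sites of Pdgfra, Sox10 and Gpr17 were then other, lower ones.

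Cspg4 had the densest surroundings. Its strongest distal site, the intronic one shown above, measured 3.73 and 3.49, which is 4.82 times the promoter peak over the mean of the libraries. A second intronic site, chr9:56891501-56891700, which also overlaps an exon, measured 3.12 and 2.52. The site at chr9:56847621-56847780, −17332 bp from the 5′ end, measured 3.28 and 2.62. Each of these 3 sites holds the longer CTCF word, chosen after the sites had been seen, under a footprint in both libraries. Of the strongest 10% of all shared distal peaks, 45.4% hold that word in their central 150 bp. The intronic site shown lies 1945 bp from the start of a Cspg4 transcript annotated as retaining an intron, so it counts as a promoter peak if starts are taken to reach 2500 bp. Per 100 kb the Cspg4 window held 16.3 distal peaks, more than 98.9% of all protein-coding genes. This averages 19 distal peaks in replicate 1 and 25 in replicate 2. Some of the 25 belong to a run of sites listed in replicate 2 only, described below.

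Gpr17 had the highest distal site of the 8 genes. On chromosome 18, the site at 31910621-31910860 measured 5.24 and 5.59, which is above 99.3% and 99.6% of all distal peaks of the respective libraries. It lay 38890 bp downstream of the Gpr17 5′ end, in an exon of Sft2d3 and only 1078 bp from the start of that gene. With starts taken to reach 2500 bp it is not distal, and the strongest distal site of Gpr17 is then one of 1.13 and 1.01, intergenic and 3759 bp from the start of Lims2. The next site of Gpr17, also intergenic, measured 0.739 and 0.762.

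Nkx2-2 had its strongest distal site in its own transcribed sequence. An exonic site, chr2:147177801-147177980, measured 3.50 and 2.21, and the intronic one shown above measured 1.89 and 2.08. The weakest of its 3 named sites, intronic at chr2:147180701-147180960, measured 0.635 and 0.952. All 3 lay between 13402 and 16352 bp into the gene model from its upstream noncoding start.

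Olig1 and Olig2 lie side by side on chromosome 16 and their windows overlap. The strongest distal site in the Olig1 window, shown above, lay in an intron of the noncoding gene Gm15966, 44549 bp downstream of the Olig1 start, and measured 2.46 and 2.39. The site 3621 bp upstream of Olig1 fell in both windows and measured 1.19 and 1.49. It was the strongest distal site of the Olig2 window. On the far side of Olig2, chr16:91191821-91192160 lay at −33461 bp from its start and measured 0.905 and 1.46. The third site of Olig1 by strength, chr16:91305801-91306180, was 380 bp wide and measured 0.805 and 1.43. The third of Olig2 lay in the exon of Olig1 and measured 0.540 and 0.534.

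For Pdgfra the strongest distal site lay at −8891 bp from the 5′ end and measured 1.85 and 1.42, below the promoter peak in both libraries. The next, chr5:75247401-75247600, measured 1.03 and 1.37 and lay 1063 bp from the start of Gm42799. The third, at chr5:75209981-75210180 and downstream of the gene, measured 0.800 and 0.657. For Sox10 the site shown measured 2.11 and 1.40, lay 16479 bp downstream of the 5′ end in an intron of Polr2f, and was 1046 bp from a Polr2f start. The next Sox10 site, chr15:79193141-79193800, lay at −28081 bp, was 660 bp wide, and held 11 footprints in replicate 1 and 7 in replicate 2 at signals of 0.753 and 1.07. The third, in an intron of Micall1, measured 0.919 and 0.866 and holds the longer CTCF word under a footprint in both libraries. Of all shared distal peaks, 14.6% hold that word in their central 150 bp. For Sox6 the intronic site shown measured 1.10 and 1.53, and the next, 0.706 and 1.30, lay beyond the 3′ end at chr7:115426721-115426920. The third Sox6 site, in an intron, measured 0.644 and 0.940.

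**Figure D2:**
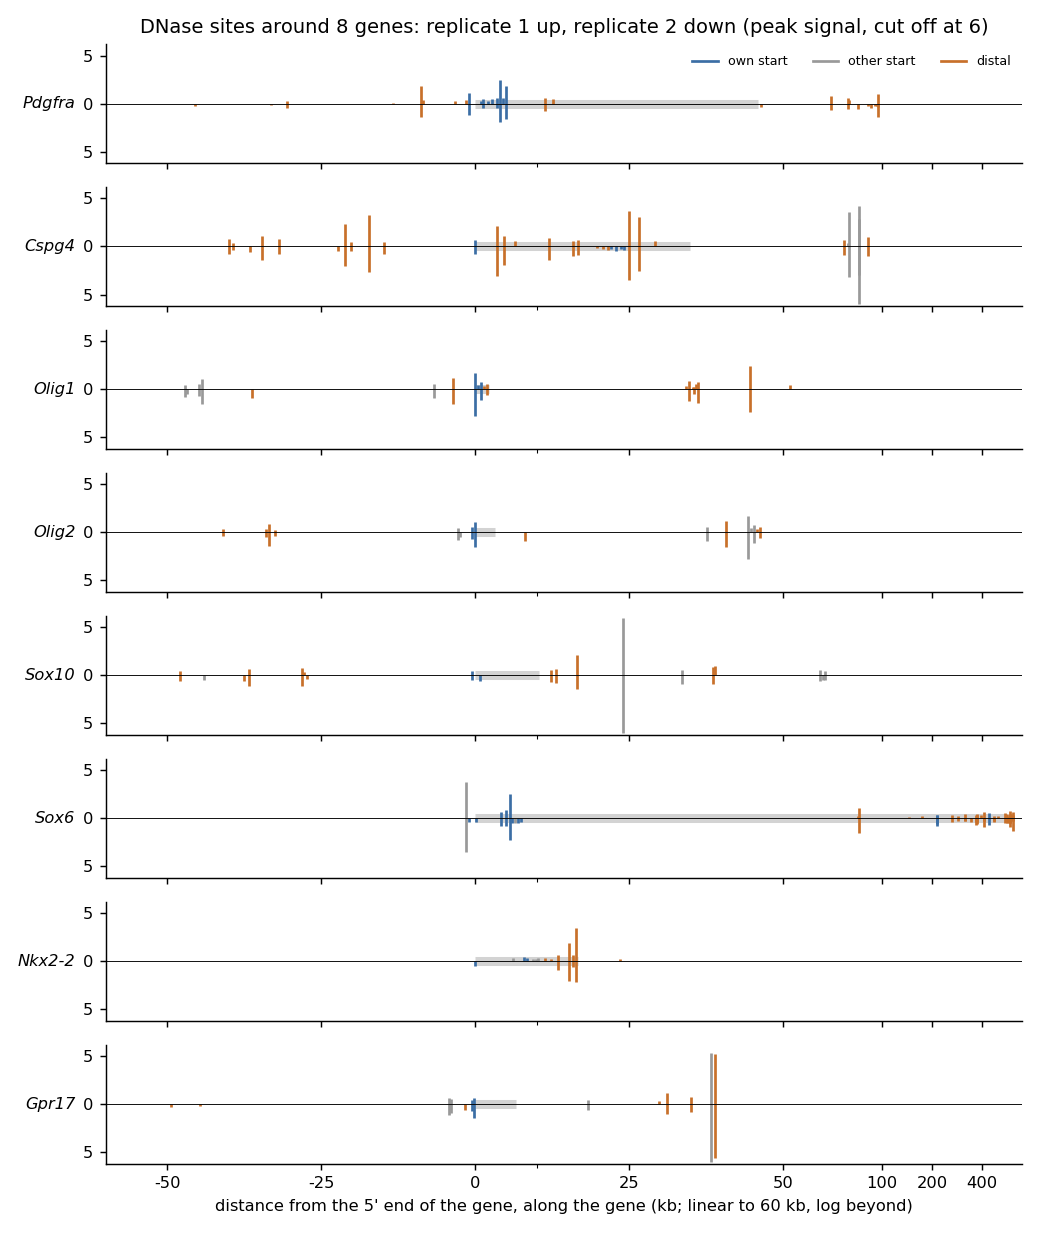
DNase sites around the 8 genes by distance from the 5′ end along the gene (kb, linear to 60 kb and log beyond), with peak signal upward for replicate 1 and downward for replicate 2, cut off at 6; the grey band is the gene, and colours give sites at a start of the gene, at a start of another gene, and distal. The high distal site in the Gpr17 row (5.24 and 5.59) and the tall distal sites around Cspg4 point both ways, that is, they appear in both libraries.

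Counted once where windows overlap, the 8 windows held 136 peaks in replicate 1 and 143 in replicate 2. Of these, 90 and 94 were distal, 26 and 31 lay at a start of one of the 8 genes (1 of the 31 had its centre far enough away to count as distal too), and 20 and 19 lay at a start of another gene. Merged over the libraries, the distal peaks formed 114 sites: 61 in introns, 42 between genes and 11 in exons. The density of distal peaks had a median of 7.80 per 100 kb for the 8 genes and 4.74 for all protein-coding genes. It ran from 3.52 at Sox6, the longest of the 8 genes, through 4.69 at Gpr17, 4.71 at Nkx2-2, 6.78 at Olig2, 8.81 at Olig1, 8.91 at Pdgfra and 9.06 at Sox10 to the value at Cspg4.

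In each library 66 of the distal peaks were also found in the other, with an overlap of at least 1 bp. That is 73.3% in replicate 1 (exact 95% interval 63.0 to 82.1%) and 70.2% in replicate 2 (59.9 to 79.2%). Of all distal peaks, 77.1% and 73.7% were found in the other library, inside both intervals. These intervals cover counting error only. By gene the share was lowest at Pdgfra, with 6 of 12 and 6 of 14. At Cspg4 it was 17 of 19 in replicate 1 and 17 of 25 in replicate 2, and at Nkx2-2 it was 4 of 7 and 4 of 4.

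**Figure D3:**
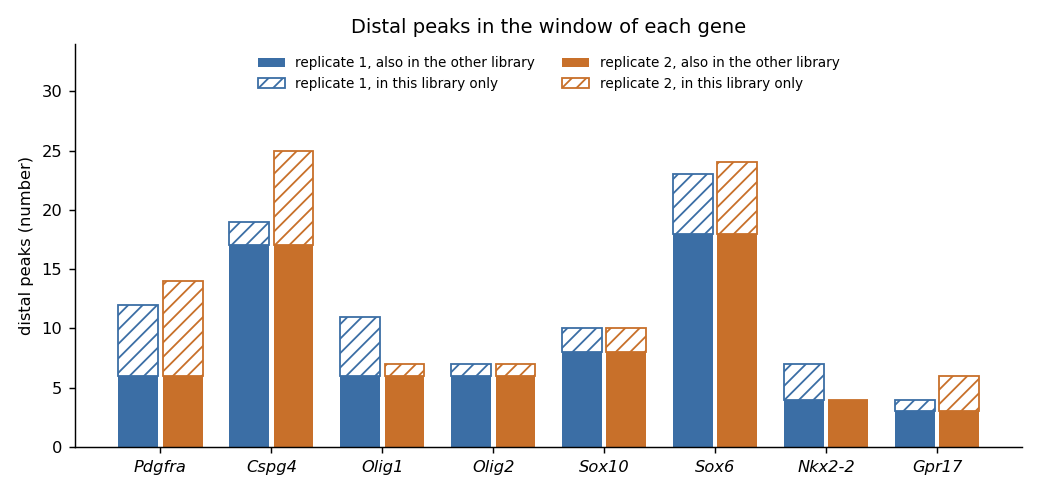
Number of distal peaks in the window of each of the 8 genes, replicate 1 left and replicate 2 right; solid bars were also found in the other library and hatched bars were not. The hatched part is largest at Cspg4 and Pdgfra in replicate 2, and the Nkx2-2 window holds 7 distal peaks in replicate 1 and 4 in replicate 2.

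The sites of only 1 library were not evenly spread. Inside Cspg4, 7 neighbouring sites over 4654 bp (chr9:56884667-56889320) were listed in replicate 2 only. Their signals were low, 0.166 to 0.448, yet the best false discovery rate (q) among the authors' deposited intervals there was 3.80e-29, against 0.00403 at the Cspg4 promoter in the same library. In replicate 2, 84.7% of this span lay in intervals with q up to 0.05. Replicate 1 had no such interval in any of the 7 sites. Exons of Cspg4 made up 76.7% of the bases in these sites and 76.3% of the span.

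Inside Nkx2-2, 8 neighbouring sites over 6404 bp (chr2:147181957-147188360), including the promoter peak at the coding start, were listed in replicate 1 only. Signals ran from 0.227 to 0.464 and the best q was 1.88e-06, and replicate 2 had no interval with q up to 0.05 in any of them. Another run, of 6 sites downstream of Pdgfra, was in replicate 2 only, and there replicate 1 had such an interval in 2 of the 6. What produced these runs was not tested.

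Footprint numbers were close to those of other peaks of like signal. Distal peaks of the 8 genes held 2.38 footprints per peak in replicate 1 and 2.18 in replicate 2 (2.28 ± 0.14, SD, n = 2), and peaks at their own starts held 2.35 and 1.87 (2.11 ± 0.34, SD, n = 2). These 2 means differed by less than the spread of the promoter value. All distal peaks held 2.04 and 1.99. All distal peaks of like signal held 2.13 and 1.98, and all peaks near starts of like signal as these promoters held 2.10 and 1.97. At least 1 footprint was present in 84.4% and 83.0% of the distal peaks of the 8 genes, against 84.0% and 83.2% of all distal peaks.

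**Figure D4:**
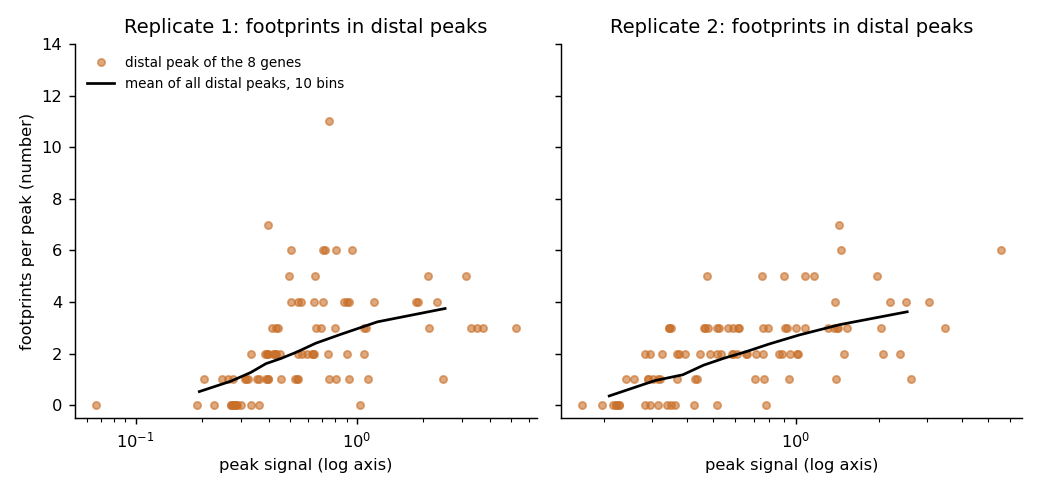
Footprints per peak (number) against peak signal (log axis) for the distal peaks of the 8 genes in each library; points are single peaks and the black line is the mean of all distal peaks, in 10 bins of equal number by signal. The points scatter on both sides of the line in both libraries.

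Of 12 words chosen for this comparison, searched on either strand in the central 150 bp of the 66 shared distal peaks of replicate 1, none was in more than 14. The same search was made in all 85698 shared distal peaks. The E-box CAGCTG was in 14 (21.2%, against 16.8% of all) and the E-box CAGATG in 7 (10.6%, against 21.1%). The Sox word ACAAAG was in 11 (16.7%, against 10.6%) and the Sox word ACAATG in 5 (7.58%, against 6.25%). The homeodomain word CAAGTG, of the kind Nkx2-2 reads, was in 5 (7.58%, against 10.6%). The nuclear factor I word TTGGCA was in 8 (12.1%, against 16.8%), the AP-1 word TGANTCA in 4 (6.06%, against 9.25%), the TEAD word GGAATG in 3 (4.55%, against 9.27%) and the GC box GGGCGG in 6 (9.09%, against 6.17%). AGNGGGCGC was in 1 (1.52%, against 2.71%), the POU word ATGCAAAT in 2 (3.03%, against 1.22%) and the cyclic AMP response word TGACGTCA in 0 (against 0.356%). With 66 peaks each of these shares rests on few sites, and no share was tested.

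The longer CTCF word was in 12 of the 66 (18.2%), against 14.6% of all. Among the strongest 10% of distal peaks it was in 3 of 9 near these genes and in 45.4% of all.

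Other genes of the lineage were open as well. All 15 further genes of precursors on the list had a promoter peak in both libraries, against 66.7% of all protein-coding genes. The same share applies to the other lists below. The highest means were at Sox8 (4.61 ± 0.40), a relative of Sox10, Tnr (3.77 ± 0.40), a matrix protein, and Vcan (2.59 ± 0.34), a proteoglycan (SD, n = 2). The lowest was Enpp6 (0.362 ± 0.157), a phosphodiesterase of newly forming oligodendrocytes. Of the 5 genes of the platelet-derived growth factor family other than Pdgfra, all were open in both libraries, led by the ligand Pdgfb (3.96 ± 0.13), the ligand Pdgfa (1.64 ± 0.01) and the receptor Pdgfrb (0.820 ± 0.169). Among 11 factors that hold back or drive differentiation, 10 were open in both. The highest were Id2 (10.7 ± 3.3), an inhibitor of helix-loop-helix factors, Sox4 (7.83 ± 1.79) and Zfp24 (7.43 ± 1.53), and Nkx6-2 had a peak of 0.597 in replicate 1 only.

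Genes of other cell types were open too. Of 8 genes each, 8 astrocyte, 8 neuron and 6 microglia genes had a promoter peak in both libraries, against 66.7% of all protein-coding genes. None of 8 hepatocyte genes did. Of 8 genes of myelinating oligodendrocytes 3 did: Cnp (1.35 ± 0.05), Mbp (1.26 ± 0.02) and Cldn11 (0.599 ± 0.083), whereas Mag, Mobp and Ermn had none in either library and Mog had one of 0.344 in replicate 2 only. The promoter signals of the 8 precursor genes summed to 10.03 and 11.7, and those of the myelinating genes to 3.24 and 3.51. Those of astrocytes summed to 11.9 and 14.7, of microglia to 7.05 and 9.15, and of neurons to 20.4 and 26.6. By the median over genes with a peak, precursor genes were above astrocyte genes, at 0.886 and 1.44 against 0.599 and 0.756. Those medians were 1.27 and 0.894 for myelinating genes, 0.732 and 0.743 for microglia and 2.53 and 2.53 for neurons. Several of the precursor genes are also used by other cells (Sox6 by interneurons, Olig1 and Olig2 by progenitors), and which cells gave each peak was not tested.

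A distal site above the promoter was also found for 7 of 8 astrocyte genes, 6 of 6 open microglia genes, 3 of 3 open myelinating genes, 11 of 15 further precursor genes, 3 of 5 genes of the growth factor family, 4 of 8 neuron genes and 3 of the 10 open differentiation factors, against the same 34.8% of all open genes. The microglia gene Csf1r and the growth factor receptor Pdgfrb had the same strongest distal mean, 6.13, so these lists are not independent.

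**Figure D5:**
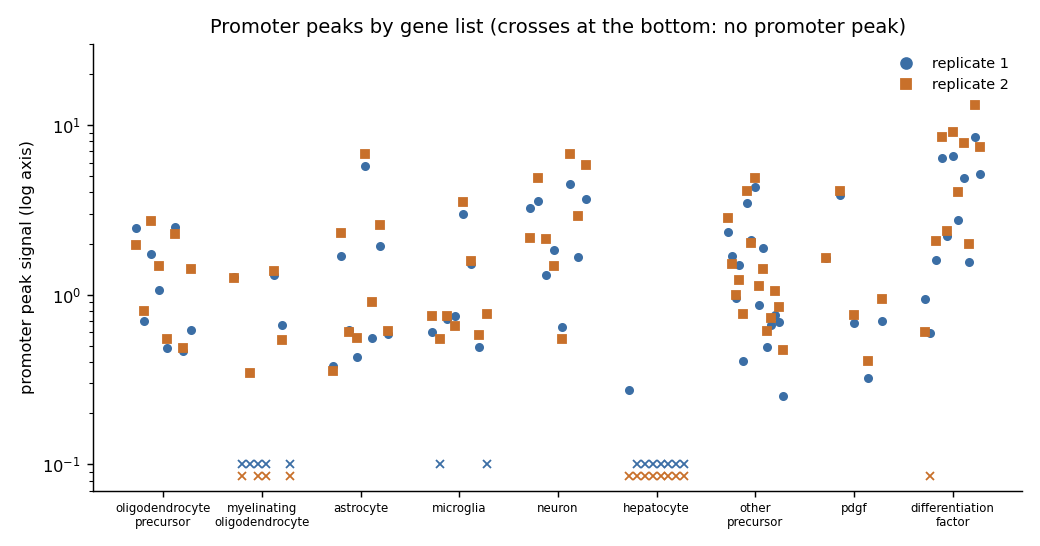
Promoter peak signal (log axis) of the genes in each list, circles for replicate 1 and squares for replicate 2, with crosses at the bottom for genes with no promoter peak in that library. The 8 precursor genes lie between 0.464 and 2.73, within the spread of the astrocyte genes, and 7 of 8 hepatocyte genes have crosses in both libraries.

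The libraries held 150726 and 155536 peaks and 380111 and 379156 footprints, and read depth was not used here. In the lower range the signals were whole multiples of a step, and the median peak held 116 steps in replicate 1 and 108 in replicate 2. If 1 step is 1 read, which the files do not state, the counting error of the 8 promoter values is between 4.36% and 11.3%, largest at Nkx2-2 and Sox10.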

How the data were processed

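Per the labels, 2 DNase-seq libraries of 1 group were deposited. Per the file headers, the authors made every file from the mm10 alignments of that library and did not pool replicates. For the aligner and the callers, names were not given in the sources used here. The signal of a peak was deposited by the authors as the highest cleavage density in it, scaled to depth, so that levels compare between libraries only as far as that scaling holds. The larger peak list of each library was used; the stricter list served for comparison. The deposited interval files give a q-value per interval and list only intervals up to 0.05.

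Peaks were joined to GENCODE M21 starts (1000 bp) and to gene bodies with 50 kb on each side, on 21 chromosomes. Footprints were assigned to peaks by overlap of at least 1 bp. The members and lists were chosen with earlier results of these data known. Named were all 8 genes, the 3 strongest distal sites of each that both libraries hold, and of each further list of the lineage the 3 highest promoters and those without one. The myelinating genes named without a peak, and the lowest of the precursor list, were added after their values were seen, as were the longer CTCF word and the runs of sites in 1 library. 1 gene of the lists is not reported here but counts in the totals. Assignment was checked on simulated peaks near the 5′ end of 200 genes, made far higher than the other peaks, and 200 were returned. This checks the code only and does not probe weak peaks, several starts or starts of neighbouring genes. No test was made over the 2 libraries. Alternatives were the peak list, the windows, the starts, the overlap and each library alone. Computations used Python with NumPy, pandas, SciPy and pysam.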

Additional observations from a re-analysis of the deposited data

How the results depend on the processing

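No paired analysis was possible because the series holds 1 group. Of 8 genes, 6 to 8 kept a promoter peak in both libraries under every alternative run (stricter list, windows of 500 and 2500 bp, the 5′ end alone, the stronger 50% of peaks), and 8 did in each library alone. The count of genes whose distal site is above the promoter was 6, ran from 5 to 7 under the stricter list, the 100 kb flank, the 500 and 2500 bp windows and scaling to the library median, and fell to 3 with a 10 kb flank. Under settings added after seeing the data it was 8 with the 5′ end alone as the promoter and 4 with the stronger 50% of peaks. A gene left without any promoter peak was counted as not above. That was Sox10 under the stricter list, and Sox10 and Nkx2-2 with the stronger 50% of peaks. For these genes the lower count does not mean that a distal site fell below a promoter peak. Leaving out 1 library gave counts of 5 and 6. The share of all open genes was computed only for the main setting (34.8%), the 10 kb flank (22.3%) and the 2500 bp window (31.6%). Counts under the other settings have no such share beside them and cannot be read as a result about these genes. The mean number of distal peaks, 92 per library, was 56 with the stricter list and 45 with a 10 kb flank, both by construction, 130.5 with a 100 kb flank, and 90 and 94 in the single libraries. The mean share of distal peaks found in the other library, 71.8%, was 62.0% with a reciprocal overlap of 50%, 76.1% with an interval of the other library up to q of 0.05 as the partner, and 77.3% without the runs of sites of 1 library, a rise fixed by how the runs were chosen. Footprints per distal peak rose from 2.28 to 2.76 with the stricter list, the cause of which was not tested, and were 2.18 and 2.38 in the single libraries; at promoters the single libraries gave 1.87 and 2.35. The Gpr17 distal value went from 5.42 to 1.07 with a 2500 bp window and to 0.584, from replicate 2 only, with a 10 kb flank. Its promoter value went from 1.01 to 0.616 in replicate 1 alone. The Sox6 distal value went from 1.32 to 3.66 with a 500 bp window and 2.67 with a 100 kb flank. Its promoter value went from 2.39 to 3.66 with 2500 bp and to 0.405, from replicate 2 only, with the 5′ end alone. Both values of 3.66 come from the same site, chr7:116040281-116040480, which lies in the neighbouring gene 1110004F10Rik, 674 bp from its start. The 0.405 peak also lies beside the start of that gene. The peak over the Sox6 5′ end itself measured 0.332 in replicate 2. The Olig1 distal value went from 2.43 to 1.34 with a 10 kb flank and that of Olig2 from 1.34 to 2.43 with 100 kb. With 2500 bp the distal value went from 1.64 to 0.729 at Pdgfra and from 1.76 to 0.917 at Sox10, and the promoter value from 0.750 to 3.61 at Cspg4. With the 5′ end alone the Pdgfra promoter went from 2.22 to 1.16. With all distal peaks of replicate 2 the share with CAGATG went from 10.6% to 16.0%, ACAATG from 7.58% to 4.26%, AP-1 from 6.06% to 3.19% and TEAD from 4.55% to 2.13%. In 300 bp, which holds more words by construction, the shares of most words were higher, with CAGATG in 27.3% and CAGCTG in 36.4%. The share over all distal peaks was not computed in 300 bp or for all distal peaks of replicate 2. These values therefore do not compare with the shares of all peaks given above. With 2 libraries, depth and n allow no statement on differences between animals.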
